A study of Mus musculus with 8 samples.

Results

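The 9 genes described here serve the calcium cycle, contraction and development of heart muscle: Ryr2, Casq2, Atp2a2, Pln and Sln handle calcium, Actc1 is the cardiac sarcomeric actin, and Nkx2-5, Tbx5 and Tbx20 are transcription factors of heart development. They were taken from a list of gene names and were found on the array through the RefSeq accession of each probe. The array held 16 probes for them, among 56605 probes for 45616 genes or unnamed transcripts. Of the 9 genes, 7 had a probe that could be tested, among 28992 tested in all. The material was lung RNA of 8 female BALB/c mice, 2 per group, with 1 single-color array per mouse. All mice were bought at 4 weeks of age, housed for 2 weeks and then fed freely for 70 days. NT mice had standard feed and no allergen. Ctrl-F mice had the same feed, Cap-F mice had feed with control particles, and ODNcap-F mice had feed with particles holding a CpG-oligodeoxynucleotide. These last 3 groups were immunized with ovalbumin (OVA) in aluminum gel by intraperitoneal injection on Days 42, 49 and 56 and inhaled OVA aerosol from Day 63 to Day 69. Lungs were taken on Day 70. The model is an allergic airway inflammation in 1 inbred strain and 1 sex, and whole lungs were used, so each value is an average over all cells of the organ. The surfactant protein gene Sftpc and the club cell secretory gene Scgb1a1 were bright in all mice. They lay between 17.60 and 17.64 and between 17.52 and 17.64 on the log2 scale. Quantile normalization gives the brightest probes near-equal values on every array, so these narrow ranges do not measure steadiness. Another club cell marker, Scgb3a2, was 16.79 and 17.10 in NT mice and between 12.54 and 13.46 in the mice given OVA. On single arrays 61.3% to 65.0% of probes were well above background, by a flag of the scanner software.

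In a heart muscle cell, a small entry of calcium opens ryanodine receptors in the sarcoplasmic reticulum, the stored calcium that they release starts contraction, and a pump returns it to the store. Calsequestrin buffers calcium inside the store, and phospholamban and sarcolipin are small membrane proteins that restrain the pump. In mice, a sleeve of heart muscle extends from the left atrium along the large pulmonary veins into the lung, so a whole lung can contain heart muscle RNA. Several members are not restricted to heart muscle: the pump gene Atp2a2 is used by most cells, and Tbx5 is also a factor of lung mesenchyme.

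The members did not share 1 pattern. Pln, Sln and Casq2 were low in both Ctrl-F mice and in 1 of 2 Cap-F mice, and near NT in the other Cap-F mouse and in both ODNcap-F mice. Ryr2 and Tbx5 were lower than NT in all 6 mice given OVA. The brightest Atp2a2 probe and Actc1 lay within a range of 0.63 and 0.71 on the log2 scale over all 8 mice. Nkx2-5 and Tbx20 were not well above background in any mouse. A gene was called where the Benjamini-Hochberg adjusted p over all 37116 tested probes was under 0.05 in limma and the fold change was over 2. By that rule 3 of 7 members fell in Ctrl-F against NT, where 22.8% of all tested genes were called and 12.2% were called lower. In Cap-F 1 of 7 members fell, against 19.6% of all tested genes called and 9.87% called lower. In ODNcap-F 2 of 7 fell, against 20.7% and 10.8%. No member was called among the 3 groups given OVA.

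**Figure D1:**
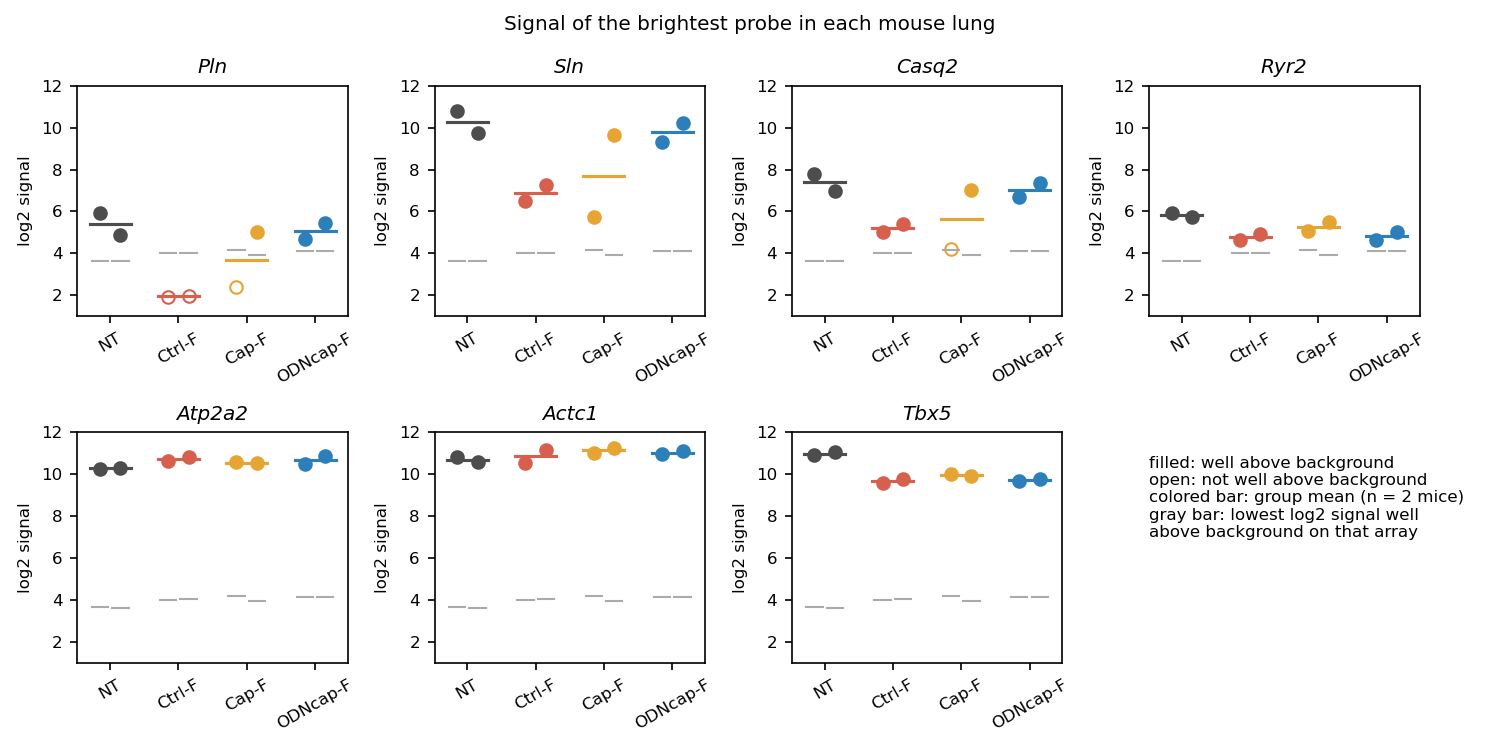
Log2 signal of the brightest probe of the 7 tested members in each mouse lung, by group, with the group mean as a colored bar (n = 2 mice). Open circles are signals not well above background and gray bars mark the lowest signal well above background on that array; Pln, Sln and Casq2 are low in Ctrl-F and split the Cap-F mice, while Tbx5 lies between 9.56 and 10.02 in all 6 mice given OVA.

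Ryr2, the calcium release channel of the cardiac sarcoplasmic reticulum, was measured by probe A_55_P2737124 (NM_023868). Its log2 signal was 5.93 and 5.74 in NT mice, 4.62 and 4.94 in Ctrl-F mice, 5.05 and 5.48 in Cap-F mice, and 4.64 and 5.02 in ODNcap-F mice. All 8 values were well above background, and every mouse given OVA was lower than both NT mice. Against NT, Ryr2 fell by 1.06 ± 0.21 (log2, SE, n = 2 per group) in Ctrl-F, with adjusted p = 0.00605 (limma). It fell by 1.01 ± 0.21 in ODNcap-F, with adjusted p = 0.00774. In Cap-F the difference was -0.57 ± 0.21, with adjusted p = 0.0584, and was not called. The order of the group means was NT, Cap-F, ODNcap-F and Ctrl-F, and the neighbors ODNcap-F and Ctrl-F overlapped. Cap-F lay above both without overlap, where limma gave adjusted p of 0.446 (ODNcap-F) and 0.328 (Ctrl-F).

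Both calls of Ryr2 lay close to the 2-fold threshold. With normexp background correction, which adds an offset to every signal, the differences were -0.42 in Ctrl-F and -0.43 in ODNcap-F, and with the mean of both probes -0.91 and -0.76, so neither call was made. The difference between Ctrl-F and NT was -0.96 without NT mouse 1 and -0.90 without Ctrl-F mouse 1, and the call was lost in both cases although the adjusted p stayed at 0.0371 and 0.0356. The difference between ODNcap-F and NT was -0.91 without NT mouse 1 and -0.82 without ODNcap-F mouse 1, again below 2-fold. A second probe, A_52_P440709, for the same accession gave 5.78 and 5.20 in NT mice, 4.56 and 4.90 in Ctrl-F mice, 4.63 and 4.86 in Cap-F mice, and 4.94 and 5.01 in ODNcap-F mice. It too was lower than NT in all 6 mice given OVA, by 0.76, 0.75 and 0.52 on the log2 scale, and none of these differences reached 2-fold.

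Casq2, the cardiac calsequestrin that buffers calcium in the store, was read by probe A_55_P2810256 (NM_009814). Its log2 signal was 7.80 and 6.98 in NT mice, 5.02 and 5.42 in Ctrl-F mice, 4.21 and 7.03 in Cap-F mice, and 6.69 and 7.35 in ODNcap-F mice. Cap-F mouse 1, the lowest of the 8, was not well above background, and Cap-F mouse 2 lay between the NT mice. ODNcap-F overlapped NT, and Ctrl-F lay below both. The difference between Ctrl-F and NT was -2.17 ± 0.88 (log2, SE), with adjusted p = 0.0758 (limma), and was not called. A second Casq2 probe, A_66_P113376, was not well above background in any mouse.

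Pln encodes phospholamban, which slows the calcium pump of the heart until it is phosphorylated. Its only probe, A_52_P22324 (NM_023129), gave log2 signals of 5.93 and 4.87 in NT mice, 1.93 and 1.98 in Ctrl-F mice, 2.37 and 5.01 in Cap-F mice, and 4.66 and 5.46 in ODNcap-F mice. The 2 Ctrl-F mice and Cap-F mouse 1 were not well above background, and the other 5 mice were. Pln was therefore at least 2.61-fold higher in NT than in Ctrl-F, measured against the lowest signal well above background on the Ctrl-F arrays, and the fall was called with adjusted p = 0.0147 (limma). In ODNcap-F its signal was at least 2.07-fold above that of Ctrl-F, with no overlap between the mice and adjusted p = 0.708. With normexp the difference between Ctrl-F and NT was -0.70, below 2-fold.

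Sln encodes sarcolipin, the regulator of the pump that is typical of atrial muscle. Probe A_52_P413395 (NM_025540) gave 10.78 and 9.75 in NT mice, 6.48 and 7.25 in Ctrl-F mice, 5.72 and 9.68 in Cap-F mice, and 9.32 and 10.25 in ODNcap-F mice. All 8 values were well above background. Sln had the widest range of the 7 tested members, 5.06 on the log2 scale, from Cap-F mouse 1 to NT mouse 1. The order of the group means was NT, ODNcap-F, Cap-F and Ctrl-F, and each group overlapped its neighbor in that order, while Ctrl-F did not overlap NT or ODNcap-F. The difference between Ctrl-F and NT was -3.40 ± 1.24 (log2, SE), with adjusted p = 0.0541 (limma), and was not called.

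The 2 Cap-F mice differed most for these 3 genes. Cap-F mouse 2 exceeded Cap-F mouse 1 by 3.95 (log2) for Sln, 2.83 for Casq2 and 2.64 for Pln, by 0.44 for Ryr2 and by 0.26 for Actc1. For Atp2a2 (brightest probe) and Tbx5 mouse 2 was lower than mouse 1, at -0.062 and -0.12. By measured signal that is 3 of 7 members over 2-fold in that direction, against 1.33% of all tested genes. Pln and Casq2 were not well above background in Cap-F mouse 1. The lowest signal well above background on that array was 4.18, and Pln in Cap-F mouse 2 (5.01) was under 2-fold above it. Without either Cap-F mouse, the falls of Sln and Casq2 in Ctrl-F against NT were called too, at adjusted p of 0.00373 and 0.00536, which made 5 called members. With NT mouse 1 or Ctrl-F mouse 1 left out, Tbx5 alone was called, and Pln had adjusted p of 0.0772 and 0.0594. Without Ctrl-F mouse 2, Pln had an adjusted p of 0.0563. In Cap-F against NT, the differences of Sln, Casq2 and Pln were -4.54, -3.18 and -3.03 for Cap-F mouse 1 alone and -0.59, -0.36 and -0.39 for Cap-F mouse 2 alone. The first 3 passed the test, but a group left with 1 mouse is assumed to vary like the other groups, so these are values of single mice.

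Against Ctrl-F, ODNcap-F was higher by 2.92 ± 1.24 for Sln and by 1.80 ± 0.88 for Casq2 (log2, SE). The adjusted p values were 0.746 and 0.760 in limma, whose SE pools the spread within all 4 groups, Cap-F included. The SD in Cap-F was 2.80 for Sln and 2.00 for Casq2, beside 0.28 to 0.66 in the 2 groups compared. For these genes and for Pln, both ODNcap-F mice exceeded both Ctrl-F mice, which is 3 of 7 members against 17% of all tested genes. The count of called members was 0, where 0% of all tested genes were called. At an unadjusted p under 0.05 in limma and over 2-fold, 1 member was counted in the fit of all 4 groups, Pln. With only ODNcap-F and Ctrl-F in the fit, the unadjusted p was 0.00237 for Sln, 0.00283 for Casq2 and 0.000413 for Pln (limma). The adjusted p in that fit lay between 0.608 and 0.619, so none was called. A rebuilt form of the study's local-pooled-error test, run on the probes kept here, called 3, namely Pln, Sln and Casq2. It borrows each variance from probes of like intensity and does not use a probe's own spread between mice. The study's own deposited values include none for Pln and Casq2. For ODNcap-F beside Cap-F, limma called 0 members and 0.00345% of all tested genes, none of the members passed the unadjusted rule, and the local-pooled-error test called Sln and Casq2. Between Cap-F and Ctrl-F the counts of members were 0 in all of these tests, against 0.00345% of all tested genes called by limma. For the unadjusted rule and the local-pooled-error test no share of all tested genes is at hand. Counts by them, here and below, therefore have no background to be read against.

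**Figure D2:**
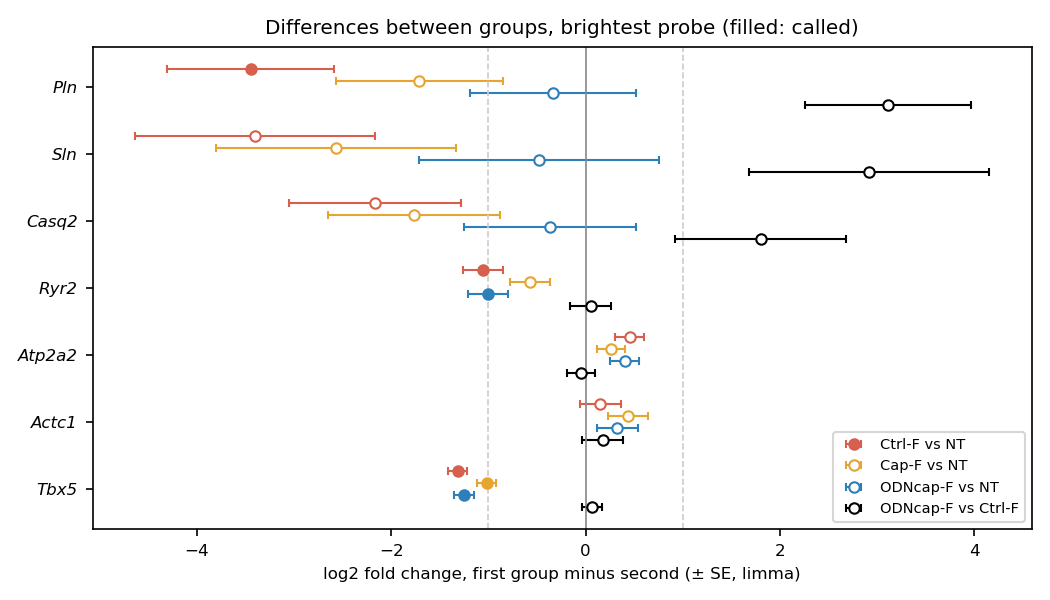
Differences of group means on the log2 scale with their SE from limma for the brightest probe of each tested member, in 4 comparisons; filled points were called and dashed lines mark 2-fold. The intervals of Pln, Sln and Casq2 are wide, with SE of 0.86 to 1.24, and those of Tbx5 are narrow, with an SE of 0.10.

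Over the 8 arrays, Casq2 followed Sln with a Pearson r of 0.997. The named genes most like Sln were Myl7 (0.994), Myh6 (0.994) and Tnnt2 (0.991), which encode an atrial myosin light chain, the fast cardiac myosin heavy chain and cardiac troponin T. Those most like Casq2 after Sln were Myl7 and Myh6, both at 0.987. Those most like Pln were Myom2 (0.988), a protein of the muscle M band, Tnnt2 (0.981) and Plk5 (0.980). The search covered the genes well above background in all mice, 15180 of them for Sln. The points share 4 groups of 2 mice, so these correlations are descriptions over 8 arrays.

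Markers of heart muscle varied with these genes. The mean log2 signal of 7 cardiomyocyte markers was 9.77 and 8.71 in NT mice, 6.53 and 7.07 in Ctrl-F mice, 6.64 and 8.99 in Cap-F mice, and 8.47 and 9.10 in ODNcap-F mice. Of them 5 of 7 fell in Ctrl-F against NT, where 12.2% of all tested genes were called lower. In Cap-F mouse 2, 6 of 7 were over 2-fold higher than in mouse 1, against 1.33% of all tested genes. The exception on both counts was Mybpc3, cardiac myosin binding protein C, with a difference of 0.41 between Ctrl-F and NT; Actn2 missed the threshold in Ctrl-F. All 7 were higher in both ODNcap-F mice than in both Ctrl-F mice, against 17% of all tested genes. None was called, and 5 passed by their unadjusted p, a rule for which no share of all tested genes is at hand. Of 3 atrial markers, 1 was called lower in Ctrl-F against NT, Myl7, where 12.2% of all tested genes were. The atrial marker Nppa was 6.73 and 6.05 in NT mice and 5.51 and 5.85 in Ctrl-F mice. It was 5.86 and 7.30 in Cap-F mice and 7.26 and 8.26 in ODNcap-F mice, so ODNcap-F lay above NT. All 3 atrial markers were over 2-fold higher in Cap-F mouse 2 than in mouse 1, against the same 1.33% of all tested genes. Of the ventricular markers, Myl2 was not tested, and Myh7, the slow cardiac myosin, fell in all 3 groups given OVA by 1.56 to 1.75 on the log2 scale, with no such gap between the Cap-F mice (11.73 and 11.54). Myl3, the ventricular myosin light chain, was 7.72 and 6.83 in NT mice, 3.57 and 4.30 in Ctrl-F mice, 2.88 and 6.91 in Cap-F mice, and 6.34 and 6.52 in ODNcap-F mice. Its measured signals split the Cap-F mice as those of Pln, Sln and Casq2 did, by 4.04 on the log2 scale. Its difference of -3.34 between Ctrl-F and NT was not called (adjusted p = 0.0547, limma). Myl3 was not well above background in Ctrl-F mouse 1 and Cap-F mouse 1, so the size of these differences is uncertain. Cap-F mouse 2 was still over 2-fold above the lowest signal well above background on the mouse 1 array, 4.18. In whole lung, fewer heart muscle cells and less RNA per such cell cannot be told apart.

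Of 3 fat cell markers, Adipoq and Cfd were low in the same mice as Pln, Sln and Casq2. Plin1 was low there too, but also in Cap-F mouse 2 (3.67) and ODNcap-F mouse 1 (2.61), against 5.95 and 5.56 in NT mice. It was well above background in 3 of 8 mice. The mean log2 signal of Adipoq, Cfd and Plin1 was 8.06 and 7.58 in NT mice, 3.84 and 5.14 in Ctrl-F mice, 4.21 and 6.80 in Cap-F mice, and 6.25 and 7.90 in ODNcap-F mice. All 3 fell in Ctrl-F against NT, and Plin1 in Cap-F, where 12.2% and 9.87% of all tested genes were called lower. Adipoq, which encodes the fat cell hormone adiponectin, was not well above background in either Ctrl-F mouse or in Cap-F mouse 1. Of 7 fast skeletal muscle markers, Myh4, Myh1, Actn3 and Myod1 were not tested, and none of the other 3 was called. Of these, Ckm, the muscle creatine kinase, also split the Cap-F mice, by a measured 2.13 on the log2 scale (3.30 in mouse 1 and 5.43 in mouse 2). It was 6.37 and 5.25 in NT mice, 3.54 and 5.32 in Ctrl-F mice, and 4.91 and 5.60 in ODNcap-F mice. Ckm was not well above background in Ctrl-F mouse 1 and Cap-F mouse 1. Cap-F mouse 2 was still over 2-fold above the lowest signal well above background on the mouse 1 array, 4.18. The part of other tissue taken with the lung in the values of Pln, Sln and Casq2 was not tested. Smooth muscle markers had mean log2 signals between 10.80 and 11.39, with no called gene among 5.

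**Figure D3:**
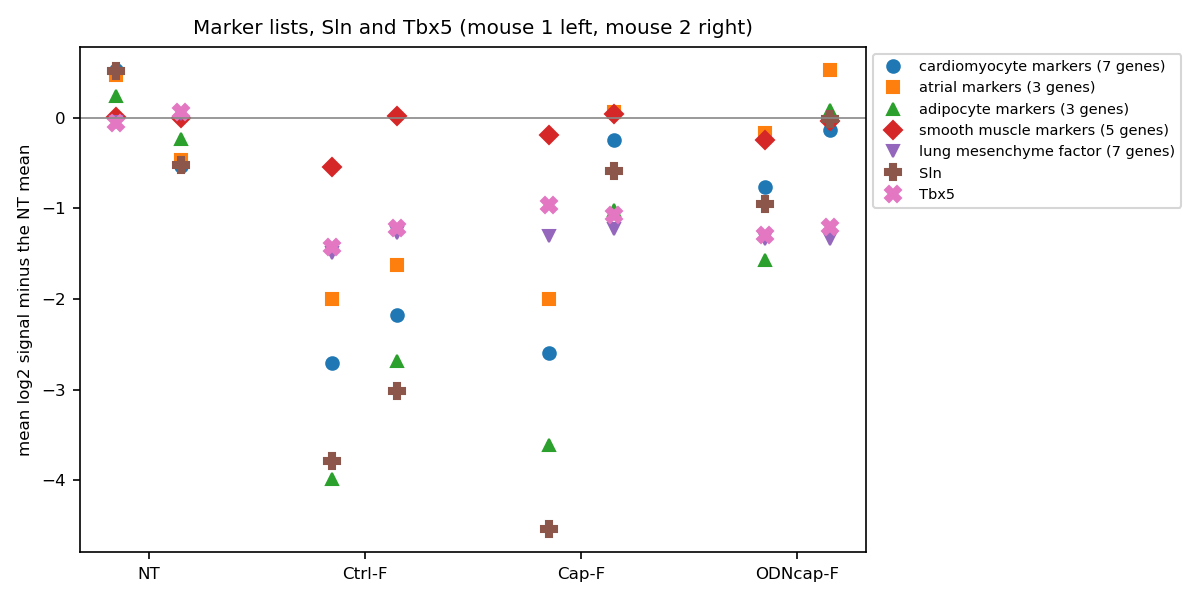
Mean log2 signal of 5 gene lists and the signals of Sln and Tbx5 in each mouse, each minus its NT mean, with mouse 1 left and mouse 2 right in each group. Sln, the cardiomyocyte and atrial markers and the adipocyte markers are low in Ctrl-F and Cap-F mouse 1, whereas Tbx5 and the lung mesenchyme genes lie about 1 to 1.5 below NT in all 6 mice given OVA.

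Promoter sequence was at hand for 6 of the 9 members, in the RefSeq table for GRCm38.p6, which holds the reference strain and not these mice. The 250 bases before the start were searched on both strands for 6 motifs of muscle genes and general transcription. Among them were a MEF2 site and a CArG box. The NKE, the element of Nkx2-5, was searched as TNAAGTG. The element of T-box factors was searched as AGGTGT. The remaining searches were for the element of GATA factors, AGATAA, and for the TATA box, as TATAAA. Pln and Casq2 are shown because their signals moved together, and Actc1 because it did not follow them. Capitals mark the matches, and none overlapped another.
Pln, chr10:53337436-53337685, plus strand: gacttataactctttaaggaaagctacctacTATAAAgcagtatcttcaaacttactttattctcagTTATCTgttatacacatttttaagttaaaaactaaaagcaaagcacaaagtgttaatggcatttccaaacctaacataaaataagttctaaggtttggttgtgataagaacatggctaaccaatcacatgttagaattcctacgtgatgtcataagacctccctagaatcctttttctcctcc
Casq2, chr3:102086165-102086414, plus strand: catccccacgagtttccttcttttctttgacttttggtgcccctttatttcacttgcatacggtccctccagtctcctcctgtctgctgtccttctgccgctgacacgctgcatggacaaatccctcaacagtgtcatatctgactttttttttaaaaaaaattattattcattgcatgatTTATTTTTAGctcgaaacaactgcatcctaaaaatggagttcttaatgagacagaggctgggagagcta
Actc1, chr2:114052876-114053125, minus strand: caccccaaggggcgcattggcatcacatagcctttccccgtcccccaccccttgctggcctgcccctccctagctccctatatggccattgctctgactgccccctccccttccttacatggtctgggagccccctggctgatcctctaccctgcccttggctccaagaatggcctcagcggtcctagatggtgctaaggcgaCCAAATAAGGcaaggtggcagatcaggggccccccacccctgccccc
Casq2 held a MEF2 site 69 to 60 bases before its start, a motif found in 2.92% of 32851 promoters. Actc1 held a CArG box, the element bound by serum response factor, 47 to 38 bases before its start, found in 1.47%. Pln held TATAAA 219 to 214 bases and, on the opposite strand, AGATAA 183 to 178 bases before its start, found in 12.4% and 9.99%. The windows of Ryr2, Nkx2-5 and Tbx20 held none of the 6 motifs, and NKE and T-box letters, found in 10.1% and 11.8% of promoters, were in none of the 6 windows. The base composition differed, with 32.8% G and C in Pln, 41.6% in Casq2 and 63.6% in Actc1. A match of letters is a description and says nothing of binding.

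Atp2a2, the pump that returns calcium to the store, gave different directions by probe. The brightest, A_52_P569001 (NM_001110140), read 10.27 and 10.30 in NT mice, 10.65 and 10.83 in Ctrl-F mice, 10.58 and 10.52 in Cap-F mice, and 10.48 and 10.90 in ODNcap-F mice. Every mouse given OVA was above both NT mice, by 0.45 ± 0.15 (log2, SE) in Ctrl-F with adjusted p = 0.0365 (limma), which is under 2-fold. Probe A_51_P451075 (NM_009722) read 10.49 and 10.21 in NT mice, 9.58 and 9.76 in Ctrl-F mice, 9.54 and 9.98 in Cap-F mice, and 9.76 and 10.25 in ODNcap-F mice. It was lower than NT in Ctrl-F, by 0.68 ± 0.22 (log2, SE) with adjusted p = 0.0387, also under 2-fold. The third probe, A_52_P168097 (NM_009722), was 7.57 and 7.41 in NT mice, 7.70 and 7.88 in Ctrl-F mice, 7.52 and 7.78 in Cap-F mice, and 7.83 and 8.0 in ODNcap-F mice, so 2 probes with the same accession differed in direction. Over the 8 arrays, A_51_P451075 followed the atrial gene Myl7 with an r of 0.90, the other probe of its accession with 0.07, and the brightest with -0.43. Which transcripts each probe reads was not tested.

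**Figure D4:**
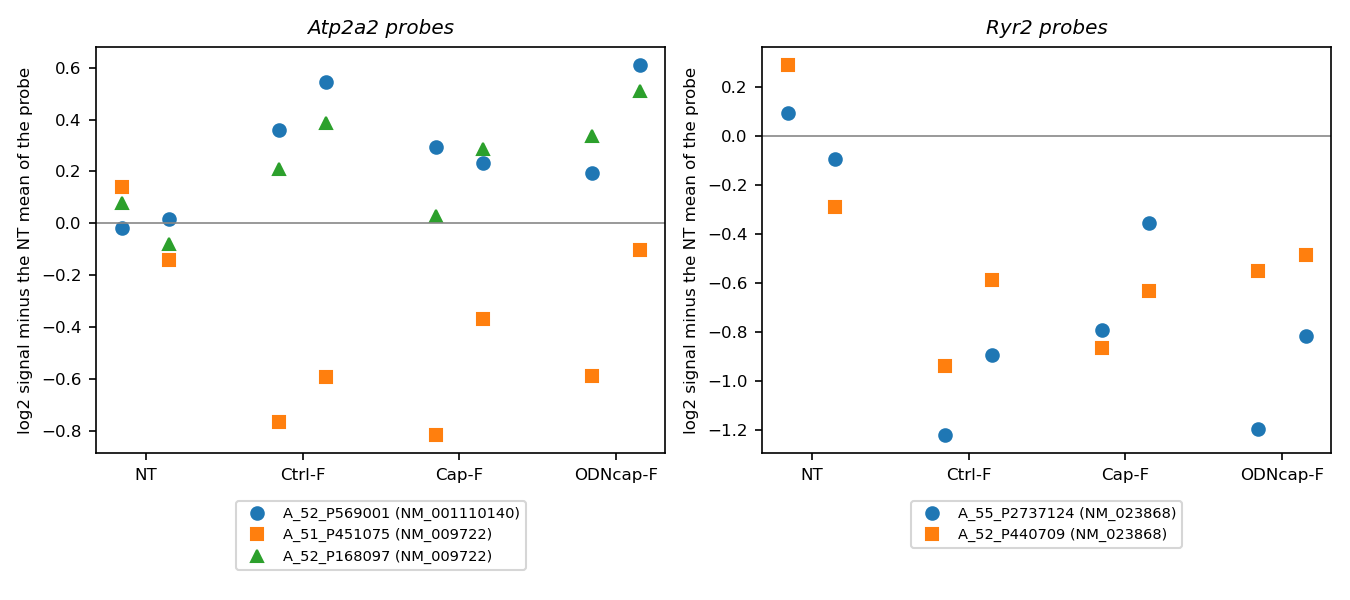
Log2 signal of each tested probe of Atp2a2 and Ryr2 in each mouse, minus the NT mean of that probe, with mouse 1 left and mouse 2 right in each group. Of the Atp2a2 probes, A_51_P451075 lies below the NT mean in all 6 mice given OVA and the others above it, whereas both Ryr2 probes lie below it.

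Actc1 encodes the actin of the cardiac sarcomere. Probe A_51_P149469 (NM_009608) gave 10.81 and 10.60 in NT mice, 10.56 and 11.15 in Ctrl-F mice, 11.01 and 11.27 in Cap-F mice, and 10.96 and 11.10 in ODNcap-F mice. Cap-F and ODNcap-F lay above NT, and Ctrl-F overlapped every other group. The largest difference was 0.44 ± 0.21 (log2, SE) in Cap-F against NT, with adjusted p = 0.125 (limma). The named gene most like Actc1 was Myh11, the myosin of smooth muscle, with an r of 0.955, followed by Acta1 at 0.920. Its r with Myl7 was 0.11. Of the other 5 actin genes none was called in any of the 6 comparisons and none passed the rule at an unadjusted p, although Actg2, an actin of smooth muscle, was higher than NT by 0.61 to 0.68 on the log2 scale with adjusted p of 0.00903 to 0.0147 in limma.

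Tbx5, a T-box factor of heart, forelimb and lung mesenchyme, had the smallest error of the 7 tested members. Probe A_52_P523712 (NM_011537) gave 10.93 and 11.04 in NT mice, 9.56 and 9.77 in Ctrl-F mice, 10.02 and 9.91 in Cap-F mice, and 9.69 and 9.78 in ODNcap-F mice. Both mice of each OVA group were more than 0.9 below both NT mice. Tbx5 fell by 1.32 ± 0.10 (log2, SE) in Ctrl-F with adjusted p = 0.000167, by 1.02 in Cap-F (0.000481), and by 1.25 in ODNcap-F (0.000227), all from limma. The fall in Cap-F was just over 2-fold, and it was -0.96 both without NT mouse 2 and without Cap-F mouse 2, below the threshold. Among the groups given OVA, Cap-F was highest and did not overlap the others, with an adjusted p of 0.408 beside ODNcap-F and of 0.249 beside Ctrl-F. Its r with Myl7 was 0.53, and 3822 named genes followed it with an r over 0.9, led by Adarb1 (0.999), Clic4 (0.997) and Il17rd (0.997).

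Genes of lung mesenchyme fell with Tbx5. Of 7 such genes, 5 fell in Ctrl-F and in ODNcap-F and 6 in Cap-F, namely Tbx4, Tcf21, Foxf1, Fgf10 and Meox2 in each, and Wnt2 in Cap-F. Over all tested genes, 12.2%, 9.87% and 10.8% were called lower against NT in the Ctrl-F, Cap-F and ODNcap-F groups. Tbx4, the T-box factor that acts beside Tbx5 in the lung, was 12.39 and 12.42 in NT mice and between 10.98 and 11.24 in the 6 mice given OVA. Fgf10, the growth factor of lung branching, fell by 1.43, 1.34 and 1.45 on the log2 scale in the Ctrl-F, Cap-F and ODNcap-F groups. Endothelial markers fell in the same mice, with 2 of 3 called lower in each group, Cdh5 and Cldn5, against the shares called lower given above. All 5 markers of eosinophils and type 2 inflammation were called higher in each group. Of all tested genes, 22.8%, 19.6% and 20.7% were called there in either direction, with the groups in the same order. The part of the change in cell makeup in the fall of Tbx5 was not tested.

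Nkx2-5 and Tbx20, which act with Tbx5 in heart development, had 1 and 4 probes. No probe was well above background in any mouse, and the log2 signals lay between 1.70 and 2.78, while the lowest signal well above background on these arrays lay between 3.61 and 4.18. They were not tested. Of 18 other cardiac factors and cofactors, 13 were tested. In Ctrl-F against NT, 2 rose and 6 were called lower, where 22.8% of all tested genes were called. Mef2c, which drives muscle genes and is also used outside muscle, rose by 1.09, 1.37 and 1.09 on the log2 scale in the Ctrl-F, Cap-F and ODNcap-F groups, and Myocd, the coactivator of serum response factor, rose by 1.16, 1.07 and 1.06. Tbx2, Tbx3 and Hopx were called lower in all 3 groups, and Gata6 and Tbx18 in Ctrl-F alone. Gata6 was 11.39 and 11.51 in NT mice and between 10.37 and 10.58 in all 6 mice given OVA. In each group its fall lay near the 2-fold threshold. Tbx3, a repressor of working muscle genes, fell by 1.93, 1.65 and 1.71. Hopx, also a marker of alveolar type 1 cells, fell by 1.85, 1.85 and 1.73. Hey2 was called lower in all 3 groups but was well above background in NT alone. Against the lowest signal well above background, the bounds lay between at least 1.43-fold (ODNcap-F) and at least 1.54-fold (Ctrl-F), all under 2-fold. None of the 13 was called among the groups given OVA, and none differed between the Cap-F mice by over 2-fold. By its unadjusted p 1 passed, Tbx18 in Cap-F beside Ctrl-F. Tbx18 was not well above background in either Ctrl-F mouse, and its bound in that comparison was at least 1.66-fold, under 2-fold.

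Of 23 other genes of calcium handling, 18 were tested. In Ctrl-F against NT, 2 rose and 5 fell; in Cap-F 1 rose and 3 fell, and in ODNcap-F 1 rose and 3 fell. Over all tested genes 22.8%, 19.6% and 20.7% were called in these comparisons, so the 4 of 18 called in Cap-F and in ODNcap-F are near the share over all genes. Hrc and Trdn, which like Casq2 belong to the release complex inside the store, fell in Ctrl-F. Trdn, triadin, was 5.98 and 4.65 in NT mice, 1.81 and 1.78 in Ctrl-F mice, 1.84 and 5.11 in Cap-F mice, and 4.40 and 5.20 in ODNcap-F mice. The same 3 mice as for Pln were lowest and not well above background, and NT was at least 2.46-fold above Ctrl-F, with adjusted p = 0.0280 (limma). Hrc, the histidine-rich calcium binding protein, was 8.15 and 7.25, 6.08 and 6.12, 5.88 and 7.07, and 6.70 and 7.49 in NT mice, Ctrl-F, Cap-F and ODNcap-F. By measured signal, Trdn and Hrc were the only genes of the list over 2-fold higher in Cap-F mouse 2 than in mouse 1. Trdn in Cap-F mouse 2 was under 2-fold above the lowest signal well above background on the mouse 1 array, 4.18.

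Casq1, the skeletal calsequestrin, was 5.94 and 6.04 in NT mice and between 4.43 and 4.72 in the other 6 mice, and fell in each group. Cacna2d1, an accessory subunit of the calcium channels of the surface membrane, fell by 1.70, 1.62 and 1.54 on the log2 scale in the Ctrl-F, Cap-F and ODNcap-F groups. Ryr1, the skeletal release channel, rose by 1.91, 1.87 and 1.74, opposite to Ryr2. Asph, whose gene also encodes junctin, fell in Ctrl-F and Cap-F and was higher in both ODNcap-F mice (9.53 and 9.84) than in the other mice given OVA (8.98 to 9.27), but this was not called. Cacnb2, a channel subunit, was called lower in ODNcap-F alone, and Camk2a was called higher in Ctrl-F alone. Both moved the same way from NT in all 6 mice given OVA. Cacnb2 was 7.11 and 7.07 in NT mice and between 5.97 and 6.33 in those mice. Camk2a was 6.35 and 6.07 in NT mice and between 6.91 and 7.25 in those mice. Atp2a1, the skeletal pump, was between 5.63 and 6.03 in all mice, and Slc8a1, the sodium-calcium exchanger, between 5.61 and 6.23. No gene of the list was called among the groups given OVA, and 1, Trdn, passed by its unadjusted p between ODNcap-F and Ctrl-F. Against the lowest signal well above background, that Trdn difference was at least 1.72-fold, a bound under 2-fold.

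Over the 7 tested members, the median log2 difference from NT in the Ctrl-F, Cap-F and ODNcap-F groups was -1.32, -1.02 and -0.37, beside -0.12, -0.11 and -0.12 over all tested genes. The first of these medians was the value of Tbx5, also with Pln at its bound. The Cap-F median was the value of Tbx5 too, but Pln in Cap-F mouse 1 was 2.37, below background. With Pln raised to the lowest signal well above background on that array, 4.18, the Cap-F median would be smaller in size. Both mice were below both NT mice for 5 of 7 members when the group was Ctrl-F, 3 when it was Cap-F and 2 when it was ODNcap-F, against 48.5%, 47.8% and 48.1% of all tested genes. The 3 comparisons with NT share the same NT mice. The arrays of NT and Ctrl-F lay in row 1 of the slide and those of Cap-F and ODNcap-F in row 2, so across these rows the row and the group cannot be told apart. With 2 mice per group, an exact permutation test of 1 gene cannot go below a two-sided p of 0.333.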

How the data were processed

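Total lung RNA of 8 mice was hybridized to single-color Agilent arrays. The authors deposited background-subtracted spot intensity from Agilent Feature Extraction 11.0, and a quantile-normalized log2 table (32312 probes). Intensities were taken to log2, 792 flagged spot values were set to missing, spots of a probe were averaged, and arrays were quantile normalized. Kept were probes that exceeded background clearly on each array of some group (37116 of 56605). The 4 groups entered 1 limma fit (limma 3.58.1 in R 4.3.3; figures by matplotlib 3.10.9) and 6 comparisons were made, tested first on simulated data. The brightest probe stood for a gene. Named were all members, the called or pivotal genes of the lists, and the 3 genes most correlated with each member. The members and lists were chosen with earlier results of these data known. Gene names came from RefSeq; 58.3% of probes had one. The methods' local-pooled-error test was rebuilt as an alternative, because it ignores the spread of a probe between mice. Other alternatives were 75th percentile scaling, normexp (offset 50), the table as deposited, no filter, a filter to probes above background on all arrays, a replicate block, fits of 2 groups, an intensity trend, the mean of probes, an unadjusted p and each array left out. The second brightest probe was added after seeing the data. The number of arrays limits the precision. The limma p-values rest on 1 variance per probe, pooled over the 2 mice of each of the 4 groups and moderated across probes. Adjusted p in the text are from limma.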

Additional observations from a re-analysis of the deposited data

How the results depend on the processing

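The count of called members in Ctrl-F against NT was 3, and 5 with only these groups in the fit, with an intensity trend, with the local-pooled-error test and at an unadjusted p, each time Ryr2, Pln, Sln, Casq2 and Tbx5. It ranged from 1 to 5 with 1 mouse left out. Normexp also called 3, but Sln and Casq2 in place of Ryr2 and Pln. The deposited table and the filter to probes above background on all arrays, which hold no value for Pln and Casq2, called Ryr2, Sln and Tbx5. Beside NT, the count in Cap-F was 1, and 4 with the local-pooled-error test, and it ranged from 0 (without NT mouse 2) to 3 with 1 mouse left out. In ODNcap-F it was 2, and 1 with normexp, the mean of probes and the second brightest probe, where Ryr2 was lost, and it ranged from 1 to 2. Between ODNcap-F and Ctrl-F it was 0, but 3 with the local-pooled-error test and 1 at an unadjusted p; between ODNcap-F and Cap-F it was 0, but 2 with the local-pooled-error test. The cause was not tested. With the replicate block the counts were 3, 1, 2, 0, 0 and 0, as without it. Same-numbered mice deviated together with r of -0.01 to 0.16, the highest between Cap-F and ODNcap-F. The labels give these mice only a number in common, and shared handling was not tested.

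Tbx5 was called against NT in each group under every setting that left no mouse out. Of the alternatives for single members, 716 kept direction and side of the threshold, 16 lost a call, 28 gained one and 26 changed sign. With the second brightest probe Atp2a2 was -0.68, -0.59 and -0.35 (log2) against NT in the 3 OVA groups, 0.33 in ODNcap-F and 0.088 in Cap-F beside Ctrl-F, and Ryr2 was 0.23 in ODNcap-F beside Cap-F. With the mean of probes Atp2a2 was -0.058 in Cap-F beside NT and 0.14 in ODNcap-F beside Ctrl-F. With normexp Ryr2 was -0.017 in ODNcap-F beside Ctrl-F. With 1 mouse left out, differences from NT ranged from -0.14 to 0.45 for Actc1 in Ctrl-F and, in ODNcap-F, from -0.86 to 0.19 for Pln, -0.997 to 0.038 for Sln and -0.78 to 0.043 for Casq2. ODNcap-F minus Ctrl-F ranged from -0.14 to 0.24 for Ryr2, -0.26 to 0.16 for Atp2a2, -0.12 to 0.47 for Actc1 and -0.036 to 0.17 for Tbx5. ODNcap-F minus Cap-F ranged from -0.014 to 2.81 for Casq2, -0.069 to 0.34 for Atp2a2 and -0.24 to 0.023 for Actc1. Cap-F minus Ctrl-F ranged from -1.14 to 2.81 for Sln, -1.01 to 1.81 for Casq2 and -0.012 to 0.58 for Actc1. Pln and Casq2, and list genes such as Hey2, Trdn, Tbx18, Myl3, Ckm, Adipoq and Plin1, were not well above background in some mice. There the array gives only a bound. A group left with 1 mouse was assumed to vary like the others.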
